A study of Mus musculus with 8 samples.

Results

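The 9 genes described here encode proteins of the central myelin sheath: Mbp, Mobp, Mal, Cnp, Mag, Mog, Cldn11, Opalin and Ermn. They were chosen by name, as genes of compact and non-compact myelin, and all 9 were among the 11315 genes with RNA values. In the DNA hydroxymethylation data, 288 of 1497075 listed cytosines were placed by the authors' annotation in a promoter, exon or intron of one of these genes.

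RRHP (reduced representation hydroxymethylation profiling) and RNA-sequencing were carried out in 2 populations sorted by fluorescence from mouse brain at postnatal day 60 (P60), with 2 libraries per population and assay, numbered replicates 2 and 3. Adult oligodendrocyte progenitor cells (aOPC) were the EGFP-positive cells of the Pdgfra-H2BEGFP line, in which the Pdgfra locus drives a histone-fused EGFP, and adult oligodendrocytes (aOL) were the EGFP-positive cells of a second reporter line, whose driver is not reported here. Both lines carry the strain label C57BL/6, neither group received a treatment, and population and reporter line cannot be told apart. For the RRHP samples grouped as aOL the tissue entry nevertheless gives the Pdgfra reporter, but their titles are the sample names of the aOL RNA libraries. The titles of the aOL RNA samples speak of pre-myelinating cells where the protocol speaks of myelinating ones. Groups followed the population named in the RNA titles, and for RRHP the sample names shared with them. RNA and RRHP libraries of the same population and number share a sample name. Per the study's methods, DNA and RNA of sorted cells were extracted from the same cell pellet. The methods also speak of biological replicates. No label says which animals or which sort a pellet came from, so p-values measure the spread between these libraries only. Reads in the RRHP tables came to 7113237 (aOPC replicate 2), 17121440 (aOPC replicate 3), 15923775 (aOL replicate 2) and 27057859 (aOL replicate 3). In each library this was below the read total listed for it in the methods of the study, by the largest share in the shallowest one, and CPM here refer to the totals of the tables.

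Myelin is a spiral of oligodendrocyte membrane whose layers are held together by proteins such as MBP, a basic protein made locally in the sheath. Other proteins sit where the layers are not compacted: MAG at the inner face toward the axon, CNP in the cytoplasmic channels, MOG on the outermost layer and claudin 11 in the tight junctions between layers. The genes for these proteins are switched on when progenitors differentiate, and serve as markers of mature oligodendrocytes. 5-hydroxymethylcytosine (5hmC) is the product of TET enzymes acting on methylated cytosine. RRHP reads it at the sequence CCGG, where a glucose added to 5hmC protects the site from the enzyme MspI, so that protected sites yield reads.

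All 9 myelin genes stood near the top of every RNA library, those labelled aOPC included. The deposited RNA values are on a log2 scale and follow nearly one distribution in the 4 libraries at the top and in the middle, with 1st percentiles that differ (1.99 to 3.03). Ranks of the 9 genes lay between 4 and 266 of 11315 genes over the 4 libraries, and the lowest single value was 14.88, against library medians of 10.57. To within 1e-06 log2 units, the first 100 ranks held the same 100 values in every library, and 824 of the first 1000 did. A difference between genes near the top is thus a difference in order.

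Markers of the progenitor stood far lower in the same libraries, in both populations. Pdgfra, which drives the reporter of aOPC, was at 7.54 and 5.47 in aOPC against 4.98 and 1.63 in aOL. Of 15 progenitor markers listed, 12 had values, with a median level of 8.18 in aOPC replicate 2, 6.32 in aOPC replicate 3, 6.35 in aOL replicate 2 and 5.98 in aOL replicate 3. No progenitor marker of 11 tested was called (limma, p under 0.01 and adjusted p under 0.05), where 0.0808% of all genes tested were. At an unadjusted p under 0.05 stood 3 of the 11, against 24% of all genes. Of the 11 differences, 7 were below 0 and 4 above. Given the low levels of these markers, the label aOPC is used for the sorted population, without a claim about its maturity. In bulk RNA, fewer cells of a type and less RNA per cell cannot be told apart.

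No myelin gene was called different between aOL and aOPC. Of the 9 tested, 0 passed (limma), where 0.0808% of all 11133 genes tested did, and the smallest adjusted p of a member was 0.145. At an unadjusted p under 0.05, 3 of the 9 passed, against 24% of all genes. In all, 5 differences were above 0 and 4 below, with a median of 0.00, against 0.02 over all genes tested.

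**Figure D1:**
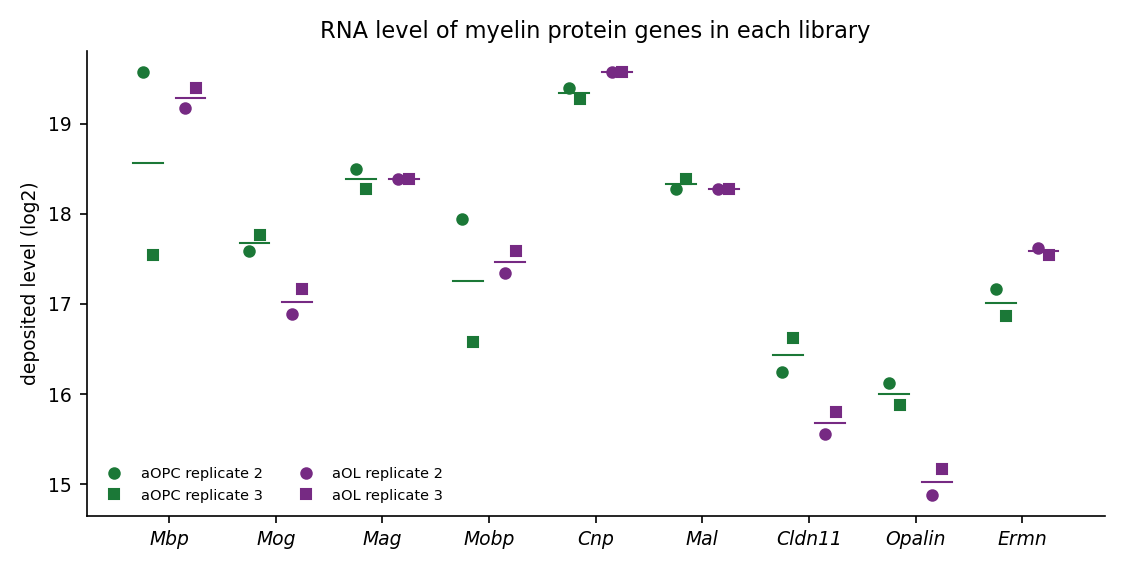
Deposited RNA level (log2, vertical axis) of the 9 myelin protein genes in each library, with circles for replicate 2, squares for replicate 3, green for aOPC, purple for aOL, and bars at group means of 2 libraries. Mbp and Mobp are spread over more than 1 log2 unit within aOPC, whereas Opalin, Cldn11 and Mog lie lower in both aOL libraries than in either aOPC library.

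Among genes of compact myelin, Mbp (chromosome 18, 82475091 to 82585637, GRCm38) varied most within aOPC. It was at 19.58 in aOPC replicate 2 and 17.55 in aOPC replicate 3, against 19.17 and 19.40 in aOL. The aOL libraries thus lay between the aOPC libraries, and the mean difference of 0.72 (SE 0.73) was smaller than the 2.03 that separated the aOPC libraries (limma adjusted p = 0.568). Without aOPC replicate 3 the difference turned to -0.29 (adjusted p = 0.232), and without aOPC replicate 2 it was 1.74 and was called (adjusted p = 0.0183, limma, with a single aOPC library taken to vary like the other group), in a fit where 34.2% of all genes were called.

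Mobp (chromosome 9, 120149742 to 120181488) encodes a small basic protein of compact myelin and had a pattern like that of Mbp. It was at 17.94 and 16.57 in aOPC against 17.34 and 17.59 in aOL. The groups overlapped, the difference was 0.21 (SE 0.52, limma adjusted p = 0.817), and it was -0.47 without aOPC replicate 3. Both Mbp and Mobp were lowest in aOPC replicate 3, and they were the only 2 of the 9 genes whose aOPC libraries differed by over 0.5. None differed by that much between the aOL libraries. The aOPC libraries lay further apart over all genes too, with an SD of the difference of 0.95, against 0.45 between the aOL libraries.

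Mal (chromosome 2, 127633226 to 127656695), which encodes a proteolipid of membrane rafts in myelin, was the most even gene with Mag and Cnp. It was at 18.27 and 18.39 in aOPC and at 18.27 in both aOL libraries, where it held rank 13 each time. The difference was -0.06 (SE 0.19, limma adjusted p = 0.864).

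Of the genes of non-compact myelin, Cnp (chromosome 11, 100574909 to 100591875), the gene of a phosphodiesterase that keeps cytoplasmic channels open, was at 19.40 and 19.28 in aOPC and 19.58 in both aOL libraries. Each aOL library lay above each aOPC library, but the steps were of 1 or 2 ranks (ranks 5 and 6 against 4), and the difference was 0.24 (SE 0.19, limma adjusted p = 0.473). Mag (chromosome 7, 30899175 to 30914922), the gene of an adhesion protein facing the axon, was at 18.50 and 18.27 in aOPC and 18.39 in both aOL libraries, a difference of 0.00 (SE 0.20, limma adjusted p = 0.993). One step between neighbouring ranks was worth 0.12 near the level of Mag in aOL replicate 3, so these differences are at the resolution of the values.

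Ermn (chromosome 2, 58045115 to 58052864), which encodes ermin, a cytoskeletal protein of late oligodendrocytes, was the other gene without overlap toward aOL. It was at 17.16 and 16.86 in aOPC against 17.62 and 17.55 in aOL. The difference was 0.57 (SE 0.21, limma adjusted p = 0.213), and it was 0.72 and called when aOPC replicate 2 was left out (adjusted p = 0.0256), in the same fit with 34.2% of all genes called. In all, 2 of 9 genes were higher in both aOL libraries than in either aOPC library, and 31.9% of all genes tested were.

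The other 3 genes without overlap lay lower in both aOL libraries than in either aOPC library, where 29.9% of all genes tested did. Mog (chromosome 17, 37010740 to 37023398), the gene of a surface glycoprotein of the outermost layer, was at 17.59 and 17.76 in aOPC against 16.89 and 17.16 in aOL, a difference of -0.65 (SE 0.22, limma adjusted p = 0.190). Cldn11 (chromosome 3, 31149920 to 31164326), which encodes the claudin of myelin tight junctions, was at 16.24 and 16.63 in aOPC against 15.55 and 15.80 in aOL, a difference of -0.76 (SE 0.24, limma adjusted p = 0.185). Opalin (chromosome 19, 41061959 to 41077113), the gene of a transmembrane glycoprotein of oligodendrocytes, was at 16.13 and 15.88 in aOPC against 14.88 and 15.17 in aOL.

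Opalin had the lowest difference of the 9 genes, -0.98 (SE 0.23, limma adjusted p = 0.145), and kept its direction without any single library (-1.12 to -0.84). The differences of Mog (-0.79 to -0.51) and Cldn11 (-0.95 to -0.57) kept theirs too. None of the 3 was called in any of these fits.

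Per kilobase of exon, the order of the genes was set mostly by large steps. Exon length here joins the exons of all annotated transcripts, 8469 bases for Mbp and 6849 for Mobp. A gene whose transcripts use only some of these exons stands too low in this order. Cnp was the highest in both populations, at a log2 level per kb of 17.47 in aOPC and 17.71 in aOL, and Opalin the lowest, at 14.45 and 13.47. Between them in aOL came Mal (16.80), Mag (16.36), Mog (16.26), Mbp (16.20), Ermn (15.72), Cldn11 (14.78) and Mobp (14.69). Mag, Mog and Mbp did not differ beyond the spread of their libraries in aOL, nor did Cldn11 and Mobp. In aOPC, Mog (16.91) and Mal (16.86) followed Cnp, then Mag (16.36), Cldn11 (15.53), Mbp (15.48), Ermn (15.15) and Mobp (14.48). The SD of 1.43 between the aOPC values of Mbp, and of 0.97 for Mobp, covers the steps to their neighbours.

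The genes nearest in pattern, by the distance of their centred log2 values over the 4 libraries to the median of the 9, were Thoc2, Prkcb, Rhot2, Zfp536 and Kctd9. Their distances lay between 0.0218 and 0.0444 log2 units. The median of the 9 genes was 17.94 and 17.55 in aOPC against 17.62 and 17.59 in aOL, highest in aOPC replicate 2 and nearly flat in the others, and the 5 genes had that shape at levels between 9.005 and 13.94.

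Other genes of the myelin membrane and its junctions were not called either. Over all genes tested, 0.0808% were called (limma) and 24% had an unadjusted p under 0.05. Of 20 tested, 0 were called (limma; 4 had an unadjusted p under 0.05), 8 differences were above 0 and 11 below, and the median was -0.07. The highest was Tppp, the gene of a tubulin polymerization protein, with a difference of 1.51 (limma adjusted p = 0.175), and the lowest Pllp, which encodes plasmolipin, at -0.91 (adjusted p = 0.155). Among 10 transcription factors of myelin genes, 0 were called (limma; 2 at an unadjusted p under 0.05) and the median was -0.24, from 0.80 for Myrf, the factor that switches on myelin genes in differentiating oligodendrocytes (15.69 and 15.11 in aOPC, 16.26 and 16.14 in aOL, limma adjusted p = 0.196), to -1.20 for Zfp488 (adjusted p = 0.188).

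Marker lists of stages gave no call either (limma), where 0.0808% of all genes tested were called. At an unadjusted p under 0.05 stood 7 of 16 mature, 2 of 9 newly formed and 3 of 11 progenitor markers, against 24% of all genes. The median difference was -0.10 over 16 mature oligodendrocyte markers, -0.52 over 9 markers of newly formed oligodendrocytes and -0.81 over 11 progenitor markers. Differences of mature markers ran from -1.48 (Klk6) to 0.93 (Anln), of newly formed ones from -1.52 (Tmem163) to 0.92 (Bcas1), and of progenitor markers from -5.17 (Neu4) to 1.06 (Ptprz1). Gpr17 of the newly formed list, at 12.64 and 8.20 in aOPC against 9.88 and 9.93 in aOL, shared with Mbp and Mobp a wide gap between the aOPC libraries.

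Markers of other brain cells had values in both groups, a few of them above the library medians, such as Slc1a3, an astrocyte glutamate transporter (12.38 and 12.52 in aOPC against 12.91 and 12.97 in aOL). In the aOPC libraries the astrocyte markers, with medians of 9.90 and 8.96, stood above the progenitor markers. No marker of these lists was called (limma), where 0.0808% of all genes tested were. An unadjusted p under 0.05 was found for 2 of 11 astrocyte, 1 of 11 microglia, 1 of 5 neuron and 2 of 3 endothelial markers tested. Over all genes it was found for 24%. Cldn5, the claudin of endothelial tight junctions, was at 0.33 and 1.80 in aOPC against 5.92 and 7.13 in aOL, a difference of 5.46 (limma adjusted p = 0.108). Gjb6, an astrocyte connexin gene, was at 9.90 and 9.44 in aOPC against 7.13 and 6.44 in aOL, a difference of -2.88 (limma adjusted p = 0.106). Cldn5 thus lay higher and Gjb6 lower in both aOL libraries than in either aOPC library. Of all genes tested, 31.9% lay higher and 29.9% lower in this way. Slc1a3 also lay higher in both aOL libraries, so the astrocyte list went both ways. Differences ran from -2.88 (Gjb6) to 0.61 (Aldh1l1) for astrocytes, from -1.37 (C1qc) to 1.18 (Itgam) for microglia and from -2.10 (Stmn2) to 0.31 (Syp) for neurons, and the lowest of the endothelial ones was -0.80 (Abcb1a). The log2 of their summed level was 13.55 to 13.91 in aOPC and 13.49 to 13.74 in aOL for astrocytes (11 of 11 markers with values), and 11.97 to 12.59 against 11.71 to 12.14 for microglia (11 of 12). For neurons it was 12.52 to 12.91 against 12.44 to 12.46 (7 of 10), and for endothelial cells 9.52 to 9.65 against 9.96 to 10.34 (3 of 10). The corresponding sum of the 9 myelin genes was 20.99 to 21.47 in aOPC and 21.31 to 21.40 in aOL. No marker of these 4 lists that had a value was listed at 0 in any library. The part of these cells in the RNA differences was not tested.

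The number of cytosines that RRHP can read differed widely between the genes. Mbp, the longest at 110.5 kb because it includes the larger Golli transcription unit, holds 140 CCGG in GRCm38, hence 280 cytosines, of which 157 were listed. Ermn holds 2 CCGG, and 1 of its 4 cytosines was listed, with 2 reads in aOPC replicate 3 and 0 in the other libraries. The other genes held between 12 (Mog) and 30 (Mal) CCGG, and between 21.4% (Cldn11) and 62.5% (Mag) of their cytosines were listed.

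Per cytosine in the gene, Mbp and Mag carried the most reads in every library. Mbp had 0.699 and 0.573 CPM (counts per 1000000 of the library total) per cytosine in aOPC and 0.607 and 0.542 in aOL, and Mag 0.675 and 0.617 against 0.602 and 0.596. Mal, with more CCGG than Mag, had 0.129 and 0.0779 in aOPC against 0.131 and 0.104 in aOL. Cldn11 had 0.151 and 0.0814 against 0.0785 and 0.0568. Genes that stood side by side in RNA, such as Mag and Mal, were thus several fold apart in RRHP signal, in both populations alike.

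**Figure D2:**
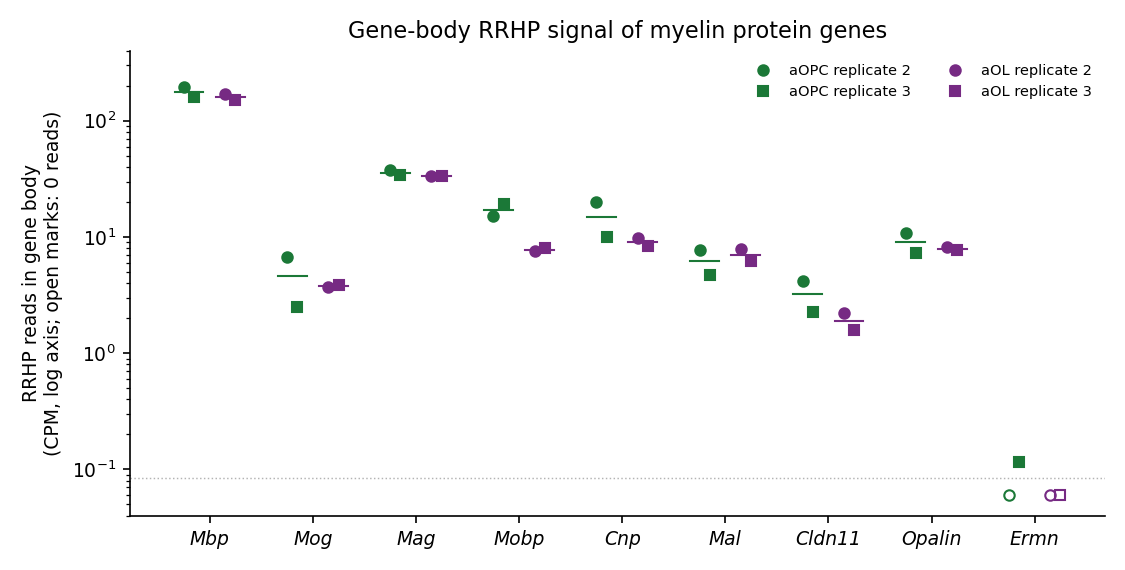
RRHP reads in the gene body (exons and introns together) of each gene, as CPM of the library total on a log axis, with circles for replicate 2, squares for replicate 3, green for aOPC, purple for aOL, and bars at group means. Open marks below the dotted line stand for 0 reads. Mobp is the gene whose aOL libraries, at 7.54 and 8.02 CPM, lie well below its aOPC libraries, at 15.04 and 19.04 CPM.

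Summed over the gene body, 1 of 8 genes tested differed, Mobp, where 0.849% of all 18488 genes tested did (edgeR, adjusted p under 0.05). The reads of Mobp were 107 and 326 in aOPC against 120 and 217 in aOL over 12 cytosines, or 15.04 and 19.04 CPM against 7.54 and 8.02 CPM. Mobp was lower in aOL with a log2 fold change of -1.16 (SE 0.19, edgeR adjusted p = 0.0195). In introns alone the values were 14.8 and 18.7 CPM in aOPC against 7.10 and 7.58 CPM in aOL, with a log2 fold change of -1.24 (SE 0.18, edgeR adjusted p = 0.0176). That made Mobp the 1 gene called of 7 tested in introns, where 1.05% of all genes were called. The exons of Mobp held 2 to 13 reads a library and were not tested, and no promoter cytosine of it was listed.

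Single cytosines of Mobp were called lower in aOL 3 times. Without those 3, which were chosen by their difference so that leaving them out must lower it, its introns held 8.15 and 10.1 CPM in aOPC against 7.10 and 7.54 CPM in aOL. The intron call was kept with RLE scaling (-1.23, edgeR adjusted p = 0.0130) and with no scaling (-1.20, adjusted p = 0.00993). It was lost with the study's own read totals as library sizes (-0.87, adjusted p = 0.797), which moved the median of all intron sums to 0.39. The gene-body call was also lost without aOL replicate 2 (-1.10, adjusted p = 0.139) or aOL replicate 3 (-1.20, adjusted p = 0.0747), while the intron call stayed without any single library.

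The other gene bodies differed by less than their spread or were not called. Mbp had 195.8 and 160.4 CPM in aOPC against 169.9 and 151.7 CPM in aOL, Mag had 37.4 and 34.2 CPM against 33.5 and 33.3 CPM, and Opalin 10.8 and 7.30 CPM against 8.16 and 7.69 CPM. Their log2 fold changes were -0.15, -0.10 and -0.17 with standard errors of 0.14, 0.13 and 0.24. Mbp and Opalin overlapped between the groups, and Mag was lower in both aOL libraries by a margin under 1 CPM.

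Cnp had 19.8 and 9.99 CPM in aOPC against 9.80 and 8.39 CPM in aOL, Cldn11 had 4.22 and 2.28 CPM against 2.20 and 1.59 CPM, Mog had 6.75 and 2.51 CPM against 3.71 and 3.84 CPM, and Mal had 7.73 and 4.67 CPM against 7.85 and 6.25 CPM. In each of these 4 genes aOPC replicate 2, the shallowest library, stood above aOPC replicate 3. Their log2 fold changes were -0.67 (SE 0.28) for Cnp, -0.76 (SE 0.51) for Cldn11, -0.23 (SE 0.46) for Mog and 0.22 (SE 0.30) for Mal, with no edgeR adjusted p below 0.634. Over the 8 genes the median was -0.20, against 0.00 over all genes tested, and 4 of 8 were lower in both aOL libraries, where 19.3% of all genes were.

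The Cnp difference was carried by 1 library. Without aOPC replicate 3 it was -1.12 and was called (edgeR adjusted p = 1.3e-06), and without aOPC replicate 2 it was -0.17 (adjusted p = 0.991). The Cldn11 difference likewise was -1.16 (adjusted p = 0.0600) without aOPC replicate 3 and -0.31 without aOPC replicate 2. Leaving out aOPC replicate 3 also gave calls in exons to Cnp (-0.90) and Mbp (-1.31), and in introns to Cnp (-1.86), Mag (-0.68) and Mbp (-0.31), each with a single aOPC library that was taken to vary like aOL. In the fits without aOPC replicate 3, 22.6% of all gene bodies, 15.7% of all exon sums and 20.9% of all intron sums were called.

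In exons, 0 of 7 genes tested were called (edgeR, and 0 by DESeq2), where 0.453% of all genes were, and 1 had an unadjusted p under 0.05, against 5.69% of all genes. Exons of Mag held 18.7 and 19.3 CPM in aOPC against 22.0 and 21.0 CPM in aOL, a log2 fold change of 0.22 (SE 0.19, edgeR adjusted p = 0.881), while its introns held 18.7 and 14.9 CPM against 11.6 and 12.3 CPM, a log2 fold change of -0.51 (SE 0.17, adjusted p = 0.416). Exon and intron differences of Mag thus had opposite signs, and neither was called. Without the 3 called cytosines in its introns, which were chosen by their difference, the introns held 14.3 and 9.40 CPM in aOPC. In aOL they then held 10.9 and 11.2 CPM, so the groups overlapped. Of the 7 tested exon sums, those of Mag and Opalin were the 2 higher in both aOL libraries (18.4% of all genes were), and Mbp the 1 that was lower (17.2% of all genes were). Opalin had 0.562 and 0.526 CPM in aOPC against 1.005 and 0.739 CPM in aOL, from a single exonic cytosine (log2 fold change 0.71, SE 0.76).

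In promoters, 0 of 5 genes tested were called (edgeR, and 0 by DESeq2), where 0.768% of all genes were, and 0 had an unadjusted p under 0.05, against 5.97% of all genes. Promoter cytosines were listed for 6 genes, from 2 in Mog to 20 in Mbp, and for Mobp, Opalin and Ermn none was listed. Promoter reads of Cnp were 81 and 71 in aOPC against 47 and 97 in aOL, for a log2 fold change of -0.59 (SE 0.39, edgeR adjusted p = 0.998). Those of Mbp were 104 and 141 against 124 and 228, a log2 fold change of 0.05 (SE 0.50, adjusted p = 0.998) that was -0.47 without TMM scaling, where the median of all promoters was -0.60. Mag, Mal and Cldn11 had 13 to 36 promoter reads a library and log2 fold changes of -0.38, -0.35 and -0.38. After scaling, 3 of 5 promoters were lower in both aOL libraries, where 17.3% of all genes were. The TMM factor of aOPC replicate 2 was 1.75 in promoters, against 0.757 to 0.936 in the other libraries, and CpG island cytosines took 5.74% of its reads against 2.38% to 3.32% in the others. The promoter cytosines given to Mbp reached 79474 bases past its annotated start, since the transcripts of the classic myelin basic protein start inside the gene.

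The RefSeq windows around the gene starts (GRCm38.p6, 250 bases before to 50 after) were read for CCGG, a palindrome that is the same on both strands. Of 32851 windows of all genes, 52.8% hold at least 1 CCGG. Windows were found for 8 of the 9 genes, and no window of Mobp, Mog, Opalin or Mal holds a CCGG, so RRHP cannot read there. Cldn11 holds the most before its start, and Mag holds 1. Both are shown to let the spacing of readable sites be seen, with CCGG in capitals and the rest in lower case, 250 bases before the start, on the strand of the gene.
Cldn11, chr3:31149670-31149919, plus strand: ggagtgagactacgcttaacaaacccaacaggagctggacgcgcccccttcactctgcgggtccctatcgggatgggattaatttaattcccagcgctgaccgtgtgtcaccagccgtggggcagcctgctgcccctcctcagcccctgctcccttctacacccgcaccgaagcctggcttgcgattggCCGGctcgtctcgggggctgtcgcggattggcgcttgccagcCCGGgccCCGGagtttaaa
Mag, chr7:30914923-30915172, minus strand: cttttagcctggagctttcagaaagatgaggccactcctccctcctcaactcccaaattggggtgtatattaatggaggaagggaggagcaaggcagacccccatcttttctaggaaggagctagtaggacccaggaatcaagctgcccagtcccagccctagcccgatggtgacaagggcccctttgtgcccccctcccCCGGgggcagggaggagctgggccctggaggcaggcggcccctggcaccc
In the Cldn11 stretch 4 cytosines were listed with 3 and 7 reads in aOPC against 2 and 7 in aOL. In the Mag stretch 1 was listed with 3 and 3 reads against 1 and 2. These few reads lie directly before genes that held rank 137 or higher in RNA in every library.

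Single cytosines were called in 4 of the genes. Of 102 cytosines tested (10 reads or more in 2 or more libraries), 11 were called, or 10.8%, where 2.29% of all 443062 were (edgeR, adjusted p under 0.05). Of the 11, 6 were higher in aOL (1.21% of all) and 5 lower (1.08% of all), and they lay in Mag (4), Mbp (3), Mobp (3) and Mal (1). Members share genes and some share a CCGG, so these 11 are not independent. All 11 were among the 16 tested cytosines that reached 10 reads only in the 2 libraries of one population, and such cytosines had to differ to be tested, so the count is a description and not support for a difference between the populations. All 11 had at most 1 read a library in the lower population, as 76.4% of all called cytosines had at most 3, and none lay in a CpG island. The next CCGG in the read direction lay 80 to 118 bases from the 5 called lower in aOL. From the 6 called higher it lay 394 to 1427 bases away. The part of this distance in the calls was not tested. Without aOPC replicate 3, 5 of the 6 that were higher in aOL were no longer called, although 6.74% of all cytosines were called in that fit, and with DESeq2 7 of the 11 were called (1.49% of all cytosines).

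**Figure D3:**
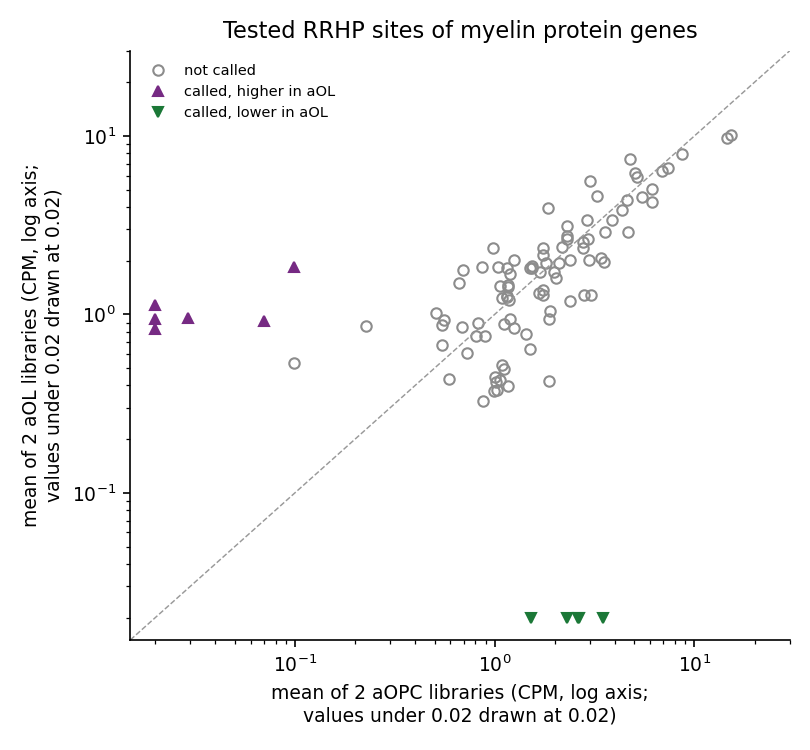
Mean RRHP signal of the 102 tested cytosines of the 9 genes in aOPC (horizontal axis) and aOL (vertical axis), in CPM on log axes, each the mean of 2 libraries, with values under 0.02 drawn at 0.02. Grey circles were not called, triangles point up for the 6 called higher and down for the 5 called lower in aOL, and the dashed line marks equal values. The called cytosines lie at the edges, near 0 in one population, and 2 of the downward triangles nearly coincide.

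Mobp held the CCGG with the smallest adjusted p among the called cytosines, in an intron 20783 bases from the gene start. It is shown here with its neighbours, because reads from it and from the CCGG next to it behaved differently. The stretch is on the plus strand of mm10 (GRCm38), with each CCGG in capitals.
Mobp intron, chr9:120170400-120170613: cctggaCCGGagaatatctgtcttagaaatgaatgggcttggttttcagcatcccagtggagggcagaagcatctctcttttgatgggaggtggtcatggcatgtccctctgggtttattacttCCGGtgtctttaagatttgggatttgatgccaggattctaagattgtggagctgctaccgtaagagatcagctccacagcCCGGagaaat
At the middle CCGG, the plus-strand cytosine (position 120170525) had 15 and 53 reads in aOPC against 0 and 0 in aOL, and the minus-strand cytosine (120170526) had 17 and 78 against 0 and 0. Neither strand had a read in either aOL library, which over the group is at least 40.2-fold and 56.2-fold lower in aOL (edgeR adjusted p = 6.45e-05 and 3.33e-05). For this bound and those given for other cytosines with no read in a population, 3 reads over both libraries of that population together were taken as the floor, which covers counting error only. At the last CCGG, 80 bases on, the minus-strand cytosine (120170606) had 37 and 164 reads in aOPC against 103 and 183 in aOL, a log2 fold change of -0.28 (SE 0.29, edgeR adjusted p = 0.832). It was the cytosine with the most reads of Mobp, 63.2% of all its reads. The plus-strand cytosine of the first CCGG had 3 and 1 reads in aOPC against 4 and 0 in aOL.

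The third called cytosine of Mobp (position 120153580, plus strand, intron, 3838 bases from the start) lies in aggtggCCGGactCCGGgggttagtccaat, with 2 CCGG in capitals, and had 15 and 16 reads in aOPC against 0 and 1 in aOL. Over the groups the ratio was 54.98 in favour of aOPC (exact 95% counting interval 9.16 to 2241, edgeR adjusted p = 0.00238). On the opposite strand of the same CCGG no library had a read.

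In Mag, 2 called cytosines are the facing ends of one short intron fragment, printed on the plus strand of mm10 with CCGG in capitals.
Mag intron, chr7:30900770-30900871: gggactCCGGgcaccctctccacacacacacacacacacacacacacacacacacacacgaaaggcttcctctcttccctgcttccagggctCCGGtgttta
The plus-strand cytosine of the first CCGG (position 30900777) had 16 and 40 reads in aOPC against 0 and 0 in aOL, and the minus-strand cytosine of the second (30900864), 86 bases away, had 15 and 54 against 0 and 0. Both fell to 0 in both aOL libraries, at least 33.1-fold and 40.8-fold lower over the group (edgeR adjusted p = 9.42e-05 and 6.28e-05). On the outer sides of the same CCGG, the minus-strand cytosine of the first had 0 and 0 reads in aOPC against 3 and 8 in aOL, and the plus-strand cytosine of the second 0, 1, 0 and 0.

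The other 2 called cytosines of Mag went the other way. Position 30911604, on the minus strand in a coding exon, had 0 and 0 reads in aOPC against 23 and 22 in aOL, which is higher by at least 8.46-fold (edgeR adjusted p = 0.00717). It lies in gacttgaagaccaCCGGtgggtagttcttg, and the plus-strand cytosine of that same CCGG had the most reads of the gene, 55 and 104 in aOPC against 106 and 166 in aOL (7.73 and 6.07 CPM against 6.66 and 6.14 CPM). At this CCGG the plus strand was read in all 4 libraries and the minus strand in the aOL libraries, a difference between strands that was not tested, at a cytosine chosen by its call. The next CCGG in the read direction lay 57 bases from the plus-strand cytosine and 406 bases from the minus-strand cytosine. The strands thus belong to fragments of different length, and the part of this length was not tested. Position 30900319, on the minus strand in an intron, had 0 and 0 reads against 10 and 28, which is higher by at least 7.14-fold (edgeR adjusted p = 0.0157).

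**Figure D4:**
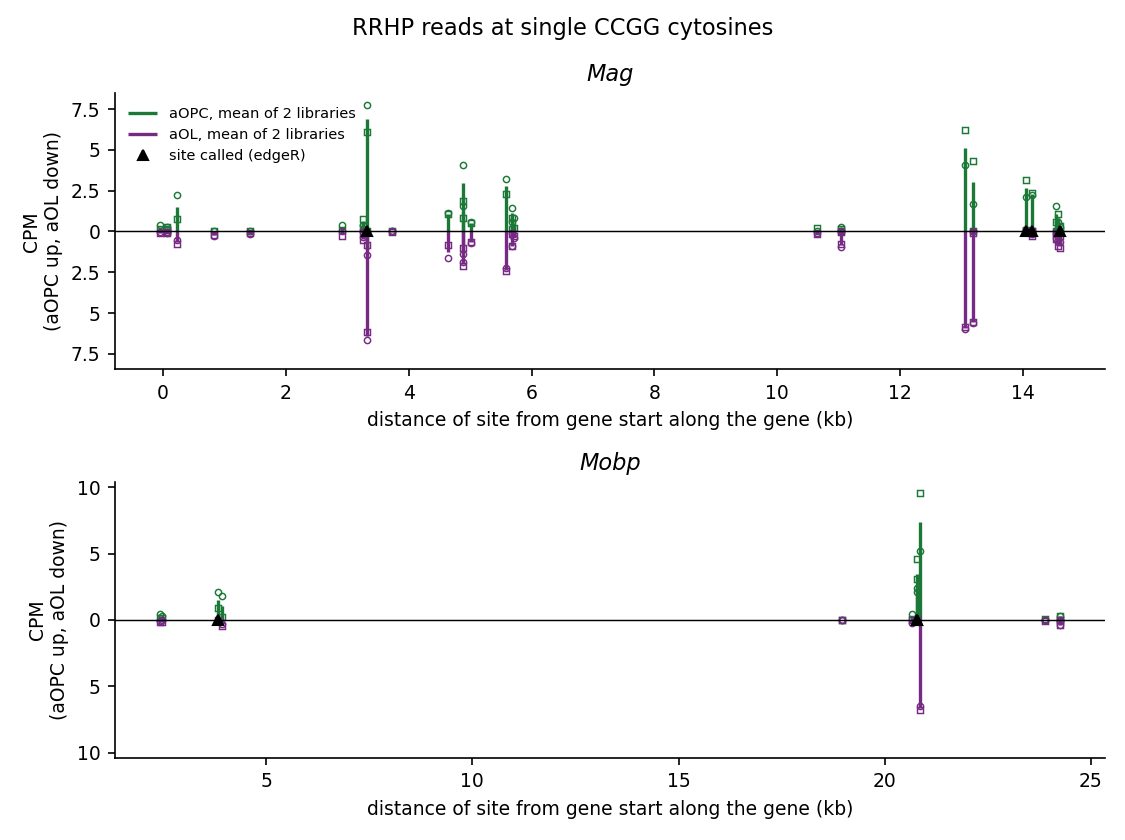
RRHP reads at each listed cytosine of Mag (top) and Mobp (bottom) by distance from the gene start along the gene (kb), in CPM, with aOPC drawn upward in green and aOL downward in purple. Lines end at the mean of 2 libraries, circles and squares are replicates 2 and 3, and black triangles mark called cytosines. At the tallest Mobp position the lines of neighbouring cytosines lie side by side, with the called pair just before the highest one.

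In Mal the called cytosine (position 127634511, minus strand) lies in an exon, in the untranslated part by GENCODE, in the stretch ccactgtgaacgtCCGGagacctctgttgg of mm10. It had 1 and 0 reads in aOPC against 18 and 19 in aOL, a ratio of 20.9 in favour of aOL with an exact 95% counting interval of 3.52 to 846 (edgeR adjusted p = 0.0442). Its log2 fold change of 4.12 was 2.31 without aOPC replicate 3, where it was not called (adjusted p = 0.183), and 7.15 without aOPC replicate 2. The plus-strand cytosine of the same CCGG had 10 and 17 reads in aOPC against 29 and 42 in aOL, with a log2 fold change of 0.45 (SE 0.44, edgeR adjusted p = 0.826). As in the Mag exon, reads on one strand were found in all libraries and on the other almost only in aOL. Here too the fragments differed in length. The next CCGG lay 194 bases from the plus-strand cytosine and 396 bases from the minus-strand cytosine.

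In Mbp, the 3 called cytosines were intronic and all higher in aOL. Position 82523423 had 0 and 0 reads in aOPC against 19 and 19 in aOL, position 82531362 had 1 and 1 against 41 and 30, and position 82577419 had 0 and 1 against 21 and 16 (edgeR adjusted p = 0.0121, 0.00753 and 0.0372). They held 81 and 65 of the 2677 and 4056 intron reads of Mbp in aOL, so the intron sum barely contains them. The 2 cytosines of Mbp with the most reads, positions 82536549 and 82546063, had 16.2 and 13.1 CPM and 19.8 and 10.5 CPM in aOPC, against 9.99 and 9.39 CPM and 10.3 and 9.83 CPM in aOL. Both lay lower in aOL, with log2 fold changes of -0.71 (SE 0.27) and -0.70 (SE 0.33), and neither was called (edgeR adjusted p = 0.332 and 0.505).

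The cytosines with the most reads in the remaining genes were also not called. In Mag, position 30901855 (minus strand, coding exon) had 29 and 106 reads in aOPC against 95 and 159 in aOL. In Cnp they were position 100580635 in a coding exon, with 49 and 69 reads against 85 and 103 (log2 fold change -0.34), and position 100576767, with 29 and 34 against 21 and 34 (log2 fold change -1.25, SE 0.44, edgeR adjusted p = 0.253). In Opalin, position 41073289 had 59 and 69 reads in aOPC against 70 and 111 in aOL, and position 41065916 had 0 and 19 against 16 and 23, a wide gap within aOPC.

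Mog and Cldn11 gave few reads. In Mog, coding-exon positions 37020523 and 37020683 face each other across 159 bases and had 19 and 12 reads in aOPC against 26 and 49, and 10 and 10 against 6 and 10. In Cldn11, position 31163440 in the untranslated part had 15 and 24 against 27 and 28, and position 31150910 had 3 to 7 reads in each library and was not tested. In Mal, position 127634705 had 9 and 31 reads against 37 and 38. None of the 91 cytosines that were tested and not called had an edgeR adjusted p below 0.0888, and their log2 fold changes ran from -2.06 to 2.48.

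The genes with called cytosines did not all lie in regions of the same kind. In windows of 5 Mb with at least 100 tested cytosines, the share of tested cytosines that were called with at most 3 reads in each library of one population had a median of 0.550% over 532 windows and was 1.75% over all tested cytosines. It was 12.95% around Mag (140 of 1081, rank 11 of 532), 7.11% around Mobp (81 of 1139, rank 32) and 5.53% around Mog (56 of 1013, rank 40). Around Cldn11 it was 1.43% (rank 135), around Mbp 0.401% and around Mal 0.832%, and around Cnp, Opalin and Ermn between 0.157% and 0.324%. The called cytosines of Mag and Mobp thus lay in windows above both of these values, that of Mal in a window above the median only, and those of Mbp in a window below both. The part of the wider region in the differences at Mag and Mobp was not tested.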

How the data were processed

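Sorted aOPC and aOL from P60 mouse brain were measured by RNA-sequencing and RRHP, 2 libraries per population and assay, grouped by their titles. The 9 genes and all marker lists were chosen with earlier results of these data known. For RNA, the deposited values are log2 levels per gene, per the study's methods aligned by the authors with BWA to mm10, counted with featureCounts and normalized with DESeq2 (version 1.2.5 in the submitters' processing notes). The study's methods name no step that would give the first 100 ranks the same values in every library, so the full normalization of these values is unknown. How the 11315 genes were chosen is not given in the sources used here, and no count model could be run on log2 values. They were tested with limma 3.58.1 (genes at 5 or more in at least 2 libraries, called at p under 0.01 and adjusted p under 0.05). The RRHP tables hold raw counts of reads per cytosine and strand as deposited, aligned to mm10 by the authors, with their promoter, exon and intron columns; the aligner is not given in the sources used here. A cytosine missing from a table was given a count of 0. Listed cytosines on the 8 chromosomes of the genes lay at a CCGG in 100% of cases. The quasi-likelihood F-test of edgeR 4.0.16 (TMM on library totals) was run on cytosines having 10 or more reads in 2 or more libraries, and on sums per gene after filterByExpr, at an adjusted p under 0.05 over all features (Benjamini-Hochberg). The scripts were tested on simulated data. The floor of 3 reads over the 2 libraries of a group was 0.124 CPM in aOPC and 0.0698 CPM in aOL, and counting intervals are exact at 95%. Depth per gene is unknown in RNA. Some values are not reported here.

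All 9 genes were named for RNA and sums, with every called cytosine and the 2 with the most reads per gene; of other lists only the highest and lowest genes were named by rule, whereas Pdgfra, Gpr17 and Slc1a3 were chosen after their values were seen. Coordinates are from RefSeq (GRCm38) and 1-based, exon lengths from GENCODE M21. Alternatives covered scaling, filters, DESeq2 1.42.0, blocks and leaving out each library. Software was R 4.3.3 and Python 3.11.15 with pandas 2.3.3, numpy 2.4.6, matplotlib 3.10.9 and scipy 1.17.1.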

Additional observations from a re-analysis of the deposited data

How the results depend on the processing

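The number of myelin genes called in RNA was 0 under the other filters, scalings and blocks tried, and changed only when single libraries were left out (0 to 2, Ermn and Mbp without aOPC replicate 2, where 34.2% of all genes were called). Without aOPC replicate 3, the RNA differences of Mbp, Mobp and Mag reversed, and their ranges over the 4 fits without 1 library were -0.29 to 1.74, -0.47 to 0.90 and -0.11 to 0.12. As normal scores of ranks, Mag was at -0.00104. Called cytosines were 11 in the main test, 7 by DESeq2 (1.49% of all cytosines), 0 where at least 10 reads were required in every library (0.286% of all; this leaves out all 11, since each had at most 1 read a library in one population) and 5 to 22 without single libraries (1.16% to 6.74% of all cytosines). Without aOPC replicate 3, the 3 of Mbp, the 1 of Mal and position 30900319 of Mag kept their direction but were not called, and without aOPC replicate 2 position 82577419 of Mbp was not called either (adjusted p = 0.0657). The 11 could be tested only where both libraries of the higher population remained. Without either library of the lower population, log2 fold changes ran from 3.31 to 4.79 and 3.81 to 6.82 at Mbp positions 82531362 and 82577419, and from -7.36 to -5.07 at Mobp position 120153580.

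For sums per gene, promoters gave 0 calls throughout. Without single libraries, exons gave 0 to 2 calls, introns 1 to 4 and gene bodies 0 to 2, where 0.227% to 15.7%, 0.707% to 20.9% and 0.443% to 22.6% of all features were called, the highest shares without aOPC replicate 3. With the study's read totals, or with cytosines of at least 3 reads in every library (which leaves out the 3 called cytosines of Mobp), introns and gene bodies gave 0. Those read totals moved the median of all genes to 0.32 in exons, 0.39 in introns and 0.37 in gene bodies, and reversed gene bodies of Mag (0.28), Mbp (0.25), Mog (0.25) and Opalin (0.23), introns of Mal (0.15), Mbp (0.25), Mog (0.37) and Opalin (0.16), exons of Mog (0.22) and the promoter of Mbp (-0.0285). The Mbp promoter was also at -0.47 without scaling and -0.0940 with cytosines of at least 3 reads. Reversals without single libraries gave ranges of -0.0846 to 0.22 (Mbp promoter), -0.76 to 0.63 (Mog exons), -0.92 to 0.35 (Mal introns), -0.43 to 0.32 (Mog introns), -0.58 to 0.0385 (Opalin introns), -0.14 to 0.55 (Mal gene body), -0.82 to 0.57 (Mog gene body) and -0.44 to 0.0922 (Opalin gene body). The causes were not tested.

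Same-numbered libraries of the populations came from different reporter lines, and no label says whether their numbers stand for a shared sort or batch. Whether the numbers pair samples between the populations is thus unknown, and the main tests did not pair them. The correlation of the deviations of same-numbered libraries was -0.07 across 11133 genes in RNA and -0.41 across 18488 gene bodies in RRHP. A replicate block gave 0 calls for the 9 genes in RNA, promoters and exons, 1 in introns (1.81% of all), 1 in gene bodies (1.13%) and 12 single cytosines (2.94%), and over all genes in RNA 30 higher and 97 lower. A crossed block, chosen after seeing the data, gave 0, 0, 1, 1 and 12 in RRHP promoters, exons, introns, gene bodies and cytosines, against 2.31%, 1.97%, 4.53%, 3.88% and 3.24% of all features. With 2 libraries per group an exact permutation test could not go below 0.333, and calls rest on models that pool spread over features.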
